A study of Mus musculus with 30 samples.

Results

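Brown adipose tissue (BAT) of mice kept at 6 °C for 6 h was compared with BAT of mice kept at 22 °C, with 5 libraries in each group. These are 10 of the 30 libraries of a bulk RNA sequencing series, chosen by the tissue, temperature and time in their labels, and all genes were followed. The other 20 libraries are BAT after 24 h at 6 °C and inguinal white adipose tissue (iWAT) after 6 h and 24 h at 6 °C and at 22 °C, in groups of 5. The series asks how cold changes the transcriptomes of both depots. All mice were male C57BL/6J of 7 to 8 weeks with no transgene, mutation or drug in the labels. They lived 5 to a cage in a room at 24 ± 2 °C with 12 h of light and 12 h of darkness, food and water being freely available. The labels used here give neither the hour of collection nor the food intake in the cold, and do not say that the replicates of a group came from separate animals. The p-values below thus rest on the spread between libraries, which may be technical.

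BAT makes heat. Cold raises sympathetic nerve firing, noradrenaline reaches the adrenergic receptors of brown adipocytes, and cyclic AMP (cAMP) activates protein kinase A, which releases fatty acids from lipid droplets and switches on transcription through cAMP-response elements and the coactivator PGC-1α. The fatty acids open uncoupling protein 1 (Ucp1) in the inner mitochondrial membrane, so that respiration yields heat in place of ATP, and are replaced by uptake of lipoprotein lipids and glucose from blood.

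The 5 libraries at 6 h held 30.1 to 41 M (M, 1000000) counts assigned to genes, and the 5 at 22 °C held 25.3 to 36.7 M. Mitochondrially encoded transcripts took 22.7 to 28.7% of counts at 6 h and 25.5 to 26.5% at 22 °C, the highest share being that of 6 h replicate 1. Levels are given as CPM, counts per 1000000 scaled by TMM library sizes (TMM, the trimmed mean of log ratios, corrects for a few very abundant transcripts). Genes were called at an adjusted p under 0.05 in edgeR's quasi-likelihood test with Benjamini-Hochberg adjustment over all 13090 genes tested, which is the source of every adjusted p below. Errors of levels are SD over 5 libraries and errors of log2 fold changes (6 h over 22 °C) are approximate standard errors.

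Several markers of brown fat fitted the label in both groups, and others did not tell the depots apart. On the length-scaled FPKM scale (fragments per kilobase of gene and per 1000000 fragments), Ucp1 stood at 7754 to 9783 in BAT at 6 h and 5173 to 6882 in BAT at 22 °C, against 333 to 2972 in iWAT at 6 h and 7.3 to 519 in iWAT at 22 °C. Zic1, a transcription factor of the brown lineage, stood at 1.71 to 3.99 FPKM in BAT at 6 h and 1.54 to 4.07 in BAT at 22 °C, with a median of 0 in both iWAT groups. Cidea, Cox7a1, Cox8b, Elovl3 and Dio2 were also higher in every BAT library at 22 °C than in every iWAT library at 22 °C. Ebf2 (median 8.68 FPKM in BAT and 8.6 in iWAT at 22 °C), Prdm16 (3.05 and 2.75) and Lhx8 (1.18 and 0.926) overlapped between the depots. Hoxc9, a positional gene of inguinal fat, was listed at 0 in every BAT library at 6 h and reached 0.101 FPKM at most at 22 °C, against a median of 5.14 in iWAT at 6 h and 5.07 in iWAT at 22 °C.

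A second tissue was present in unequal amounts. The summed level of 25 skeletal muscle markers was 160, 1884, 548, 141 and 575 CPM in the 6 h libraries, and 2368, 423, 2391, 6285 and 9704 CPM in the 22 °C libraries (replicates 1 to 5). The ranges overlapped, but 4 of the 22 °C libraries lay above every 6 h library. All 24 muscle markers tested had a negative log2 fold change, with a median of -2.74, and 4 were called lower (the fast myosin gene Myh2, the myosin light chain gene Myl1, the muscle enolase gene Eno3 and the myoglobin gene Mb). That count rested on single libraries: it was 0 without 22 °C replicate 5, 1 without 6 h replicate 1, 3 or 4, 2 without 6 h replicate 5 or 22 °C replicate 4, 8 without 22 °C replicate 2 and 10 without 6 h replicate 2. Many results below are therefore also given from a fit with muscle level as a covariate and from a fit without the 22 °C replicates 4 and 5, both chosen after seeing the data. A call lost in these fits does not by itself mean a smaller change. With the covariate the log2 fold change of Myl1 went from -1.77 to -0.31, and that of the receptor gene Adrb3 from -0.47 to -0.48. The covariate was the log2 of the summed level of the muscle markers. Myl1, Eno3 and the other markers enter it themselves, so their smaller changes under it were favoured in advance. In bulk tissue fewer cells of a type and less RNA per cell cannot be told apart.

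**Figure D1:**
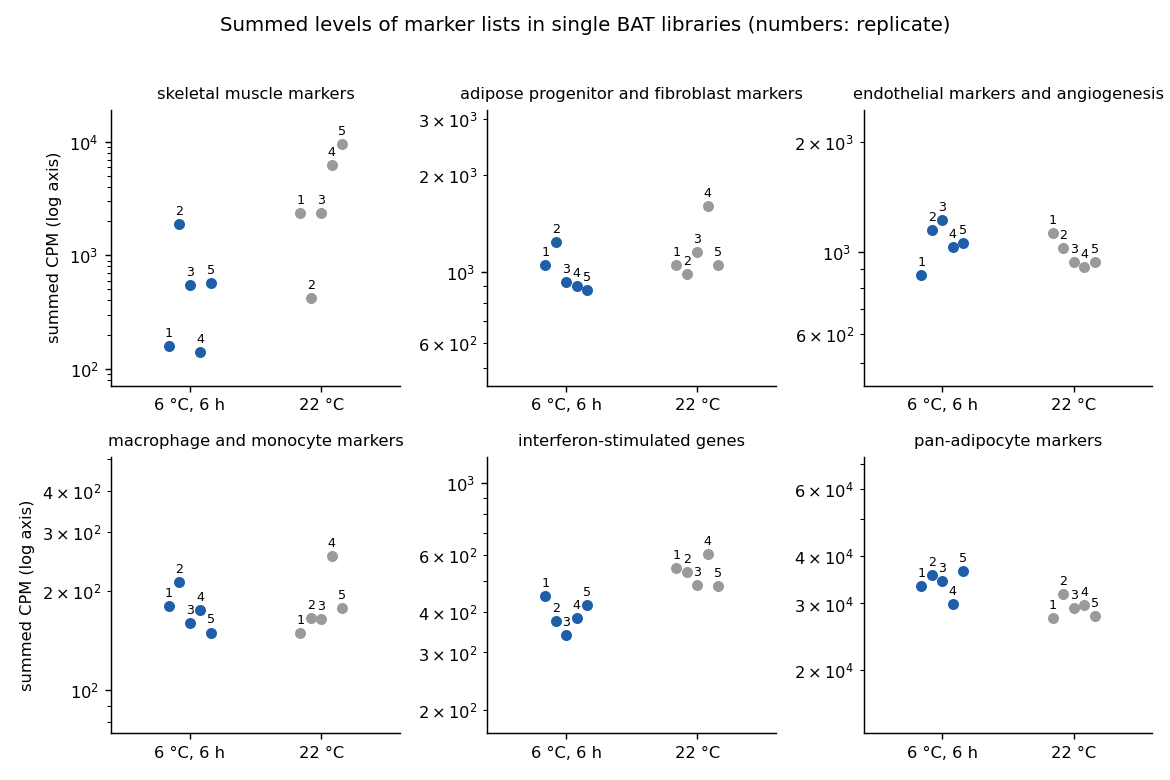
Summed CPM (log axis) of the members of 6 marker lists in each BAT library after 6 h at 6 °C (left, blue) and at 22 °C (right, grey), each point labelled with its replicate number. Skeletal muscle markers spanned 141 to 1884 CPM at 6 h and 423 to 9704 CPM at 22 °C, and the interferon-stimulated sums of the groups did not overlap.

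At 6 h 2967 of the 13090 tested genes were called (22.7%). Of these 1634 were higher (12.5% of those tested) and 1333 were lower (10.2%). The counts of called list members below are to be read beside these shares. The lists were chosen with earlier results of these data known, so a higher share in a list is no independent support. The split between the directions moved with the scale: on log2 FPKM with a pseudocount of 1, 1286 were higher and 1581 were lower. Most changes were small: 178 genes rose and 260 fell by at least 1 on the log2 scale, and the median over all tested genes was -0.01. In 2068 genes (15.8%) the 5 libraries at 6 h did not overlap with the 5 at 22 °C, and 1883 of those were called. No overlap was a condition for naming the 12 largest rises and 12 largest falls below. For those genes the separation of the groups is therefore no added support. With the muscle covariate 1933 genes were called, 1778 of them among the 2967 and in the same direction. Without the muscle-rich 22 °C libraries 1783 were called.

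**Figure D2:**
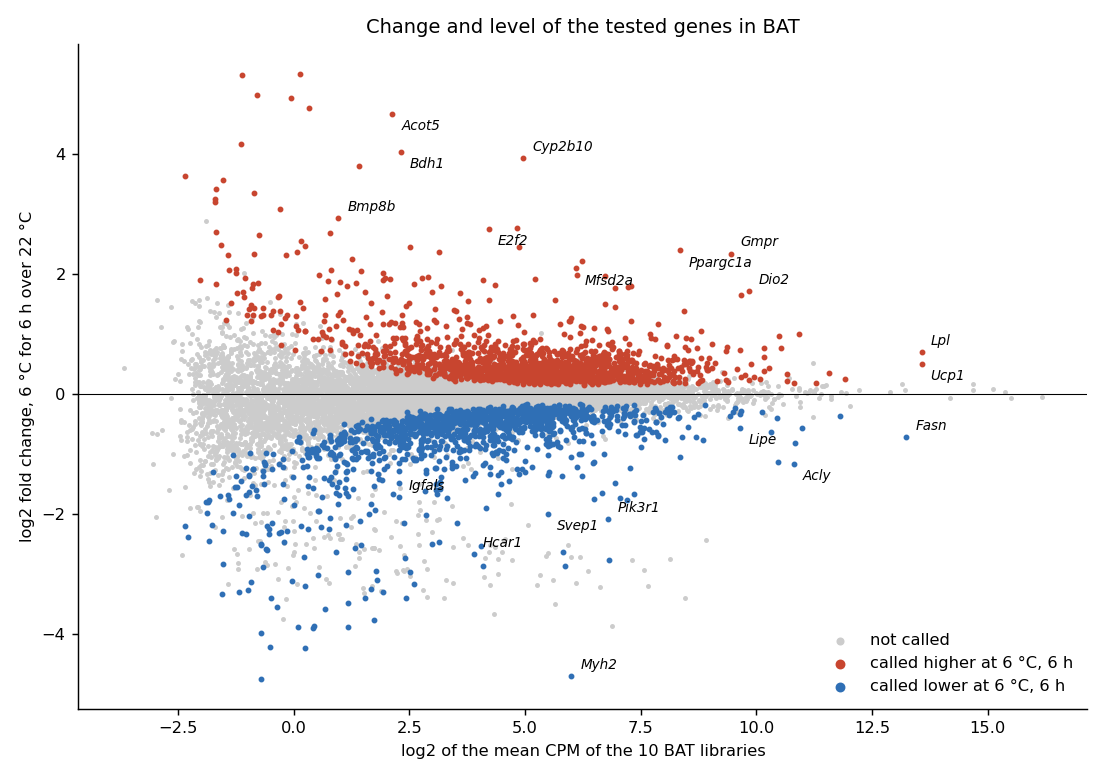
Log2 fold change (6 °C for 6 h over 22 °C) against log2 of the mean CPM of the 10 BAT libraries, 1 point per tested gene. Red points are the 1634 genes called higher, blue points the 1333 called lower and grey points the rest, and named genes include the largest changes and the highly expressed Ucp1, Lpl, Fasn and Acly.

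Some genes on the signalling side of the adrenergic pathway were called higher. Adcy3 (ENSMUSG00000020654), an adenylyl cyclase that makes cAMP, stood at 475, 643, 746, 626 and 526 CPM at 6 h and at 289, 426, 283, 209.9 and 245 CPM at 22 °C. The groups did not overlap (log2 1.05 ± 0.16, adjusted p = 0.0002). Prkar1a, a regulatory subunit that holds protein kinase A inactive until cAMP binds, rose to 452 ± 23.4 CPM at 6 h against 309 ± 26 CPM at 22 °C (log2 0.55 ± 0.07). The cAMP-degrading phosphodiesterases Pde4a (log2 0.51 ± 0.09), Pde4d (0.58 ± 0.14) and Pde7b (0.70) also rose.

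Receptor transcripts were lower or not called. Adrb3, the β3-adrenergic receptor of brown adipocytes, had 136, 117, 131, 142 and 163 CPM at 6 h and 193, 183, 203, 217 and 158 CPM at 22 °C, with the lowest 22 °C library inside the 6 h range. It was called lower (log2 -0.47 ± 0.15, adjusted p = 0.0284). Leaving out any of 5 single libraries ended the call: 6 h replicate 2 (0.0564) or 3 (0.0541), or 22 °C replicate 1 (0.0514), 3 (0.061) or 4 (0.0735). The call was also lost with the muscle covariate (0.0721, at a log2 of -0.48) and without the muscle-rich libraries (0.0658). The β1 receptor gene Adrb1 was not called (log2 -0.22 ± 0.26). Over the list of receptors, G proteins, cyclases, kinases and phosphodiesterases, 7 of 32 tested members rose and 3 fell, with a median of 0.01. Of all tested genes 12.5% rose and 10.2% fell. Without the muscle-rich libraries 4 members rose and 1 fell, in a fit that called 1004 higher and 779 lower of 13261 genes.

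The early-response genes that cAMP induces in many cells were a mixed set at 6 h. Nr4a3 (ENSMUSG00000028341), an orphan nuclear receptor, had 37.3, 25.7, 24, 40 and 32 CPM at 6 h and 8.92, 9.56, 7.61, 10.1 and 9.24 CPM at 22 °C. Every 6 h library lay above every 22 °C library (log2 1.81 ± 0.14, adjusted p = 6e-07). Its relative Nr4a1 had 23.4, 21.2, 58.4, 26.3 and 77 CPM at 6 h and 68.8, 118, 95.6, 80.3 and 67.6 CPM at 22 °C, and was called lower (log2 -1.06 ± 0.35, adjusted p = 0.0382). Among the 6 h libraries of Nr4a1 only replicate 5 reached the 22 °C range. With the muscle covariate its log2 fold change was -1.04. Nr4a1 was not called without 6 h replicate 1 (0.0812), 2 (0.0763) or 4 (0.0906), without 22 °C replicate 2 (0.0847), 3 (0.0712) or 4 (0.06), with the muscle covariate (0.0821), without the muscle-rich libraries (0.0662) and with all 30 libraries in the fit (0.16).

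Maff, a small Maf transcription factor, had 11.9, 11.1, 10.1, 15.4 and 12.5 CPM at 6 h and 5.92, 2.99, 3.22, 3.27 and 3.53 CPM at 22 °C (log2 1.69 ± 0.20). Dusp1, a phosphatase that switches off MAP kinases, had 63.6, 89.9, 95.6, 94.7 and 87 CPM at 6 h and 32.2, 44.5, 33.7, 34.4 and 40.1 CPM at 22 °C (log2 1.22 ± 0.12). Neither gene overlapped between groups. Fos (log2 0.01), Egr1 (0.21), Jun (-0.11), Nr4a2 (0.17) and Crem (0.22), textbook immediate early genes, were not called. Of 41 tested members of this list 7 rose and 2 fell, with a median of 0.03, and without the muscle-rich libraries 3 rose and 1 fell.

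Dio2, Maff and Dusp1 are shown in sequence because they are the genes higher by at least 1 on the log2 scale whose promoter window holds the full cAMP-response element TGACGTCA, which is drawn in capitals. Each window runs from 250 bases before to 50 bases after the annotated start (RefSeq, mouse build GRCm38.p6, not the GRCm39 of the counts), printed 5′ to 3′ on the gene's strand.
Dio2, chr12:90738989-90739288, minus strand, motif starting at -95: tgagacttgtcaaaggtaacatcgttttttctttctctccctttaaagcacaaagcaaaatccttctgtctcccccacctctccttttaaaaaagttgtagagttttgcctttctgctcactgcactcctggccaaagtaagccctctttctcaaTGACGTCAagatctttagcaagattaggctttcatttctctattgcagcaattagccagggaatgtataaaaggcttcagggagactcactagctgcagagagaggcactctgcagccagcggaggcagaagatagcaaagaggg
Maff, chr15:79347270-79347569, plus strand, motif starting at -29: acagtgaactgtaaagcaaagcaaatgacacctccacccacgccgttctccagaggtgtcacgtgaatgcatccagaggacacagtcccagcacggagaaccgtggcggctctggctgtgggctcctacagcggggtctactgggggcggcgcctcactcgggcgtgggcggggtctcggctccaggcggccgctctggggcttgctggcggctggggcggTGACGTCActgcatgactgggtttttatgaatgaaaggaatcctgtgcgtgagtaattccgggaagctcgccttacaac
Dusp1, chr17:26508423-26508722, minus strand, motif starting at -143: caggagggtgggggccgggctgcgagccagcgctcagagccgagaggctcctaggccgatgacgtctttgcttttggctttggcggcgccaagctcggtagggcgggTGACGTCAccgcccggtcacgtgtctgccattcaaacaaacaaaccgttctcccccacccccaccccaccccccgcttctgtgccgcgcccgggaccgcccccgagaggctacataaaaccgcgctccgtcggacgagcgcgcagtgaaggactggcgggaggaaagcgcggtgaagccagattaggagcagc

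Of the tested genes 10396 matched a window, and a gene was counted as holding a motif if any of its windows held it. TGACGTCA, read on both strands, stood in 3.97% of the matched genes called higher, 2.54% of those called lower and 3.4% of all matched tested genes. Among the 143 matched genes higher by at least 1 on the log2 scale the share was 2.1%, the 3 genes shown, so it was not above the share of all tested genes. Of all RefSeq windows, counted singly and not by gene, 1.79% held TGACGTCA, so that share is not on the same scale. TGACG, the core that TGACGTCA contains, stood in 40.3%, 29.3% and 34.4% of the same sets of genes, and in 23.1% of the 143 genes. CACGTG, the E-box that clock factors bind, stood in 14.2%, 11% and 11.6%, and in 8.39% of the 143. TTATGTAA, the D-box bound by Dbp and Hlf, stood in 0.674%, 0.847% and 0.702%, and in 1.4% of the 143. CCAAT, a general promoter motif set beside them, stood in 40.4%, 45.9% and 42.7%, and in 42% of the 143. A match describes the letters of a window and is no evidence that a factor was bound there.

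Transcription regulators of brown fat changed in both directions, with rises of the coactivator PGC-1α and of estrogen-related receptors among them. Ppargc1a (ENSMUSG00000029167), which encodes PGC-1α, had 407, 543, 489.6, 698 and 604 CPM at 6 h and 104, 99.4, 91.2, 70.6 and 158 CPM at 22 °C. The lowest 6 h library lay well above the highest 22 °C library (log2 2.39 ± 0.27, adjusted p = 1.5e-05). Estrogen-related receptors drive mitochondrial genes together with PGC-1α. Esrra rose to 219 ± 19.3 CPM at 6 h against 169 ± 10.4 CPM at 22 °C (log2 0.38 ± 0.07). Esrrb, the scarcest of the 3, rose to 6.14 ± 1.46 CPM at 6 h against 1.52 ± 0.404 CPM at 22 °C (log2 2.01 ± 0.22), with no overlap.

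Esrrg was called higher by 0.38 ± 0.11 on the log2 scale (adjusted p = 0.0177), but not without 6 h replicate 2 (0.0535) or 3 (0.0658), on log2 FPKM with a pseudocount of 1 (0.0596) or 0.1 (0.0562), without the muscle-rich libraries (0.0567) or with all 30 libraries in the fit (0.441). Srebf1, a lipogenic factor, fell to 109.9 ± 23.2 CPM at 6 h against 175 ± 17.6 CPM at 22 °C (log2 -0.67 ± 0.13). Lineage factors of brown fat were not called: Prdm16 (log2 0.21), Ebf2 (0.04), Zic1 (0.24), Pparg (-0.02) and Irf4 (-0.63 ± 0.44). Over the list 10 of 40 tested members rose and 6 fell, with a median of 0.05, and 6 rose and 5 fell with the muscle covariate and without the muscle-rich libraries.

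Heat-producing genes rose in part. Ucp1 (ENSMUSG00000031710) had 17845, 12422, 13186, 15172 and 12779.9 CPM at 6 h and 10668, 11223, 10101, 8191 and 10402 CPM at 22 °C. The groups did not overlap, though the gap between them was small beside the spread at 6 h (log2 0.50 ± 0.10, adjusted p = 0.00172). With all 30 libraries in 1 fit, where iWAT libraries add to the shared spread, Ucp1 was not called (adjusted p = 0.635). On the FPKM scale its mean was 8532 ± 886 at 6 h and 6226 ± 638 at 22 °C.

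Dio2 (ENSMUSG00000007682), the deiodinase that makes active thyroid hormone inside brown adipocytes, had 1247, 1309.7, 1432, 1591 and 1471 CPM at 6 h and 456, 549.6, 369.7, 308 and 468 CPM at 22 °C (log2 1.71 ± 0.14, adjusted p = 1e-06). Elovl3, which lengthens very long fatty acids and is a classic cold-induced gene, had 564, 432, 523, 574 and 408 CPM at 6 h and 269.5, 201, 213, 124 and 150.4 CPM at 22 °C. Neither gene overlapped between the groups. The log2 fold change of Elovl3 was 1.38 ± 0.18 (adjusted p = 4.2e-05, and 0.112 with all 30 libraries in the fit). Slc25a34, a mitochondrial carrier, stood at 74.9 ± 9.62 CPM at 6 h and 25.3 ± 6.47 CPM at 22 °C (log2 1.57 ± 0.18).

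**Figure D3:**
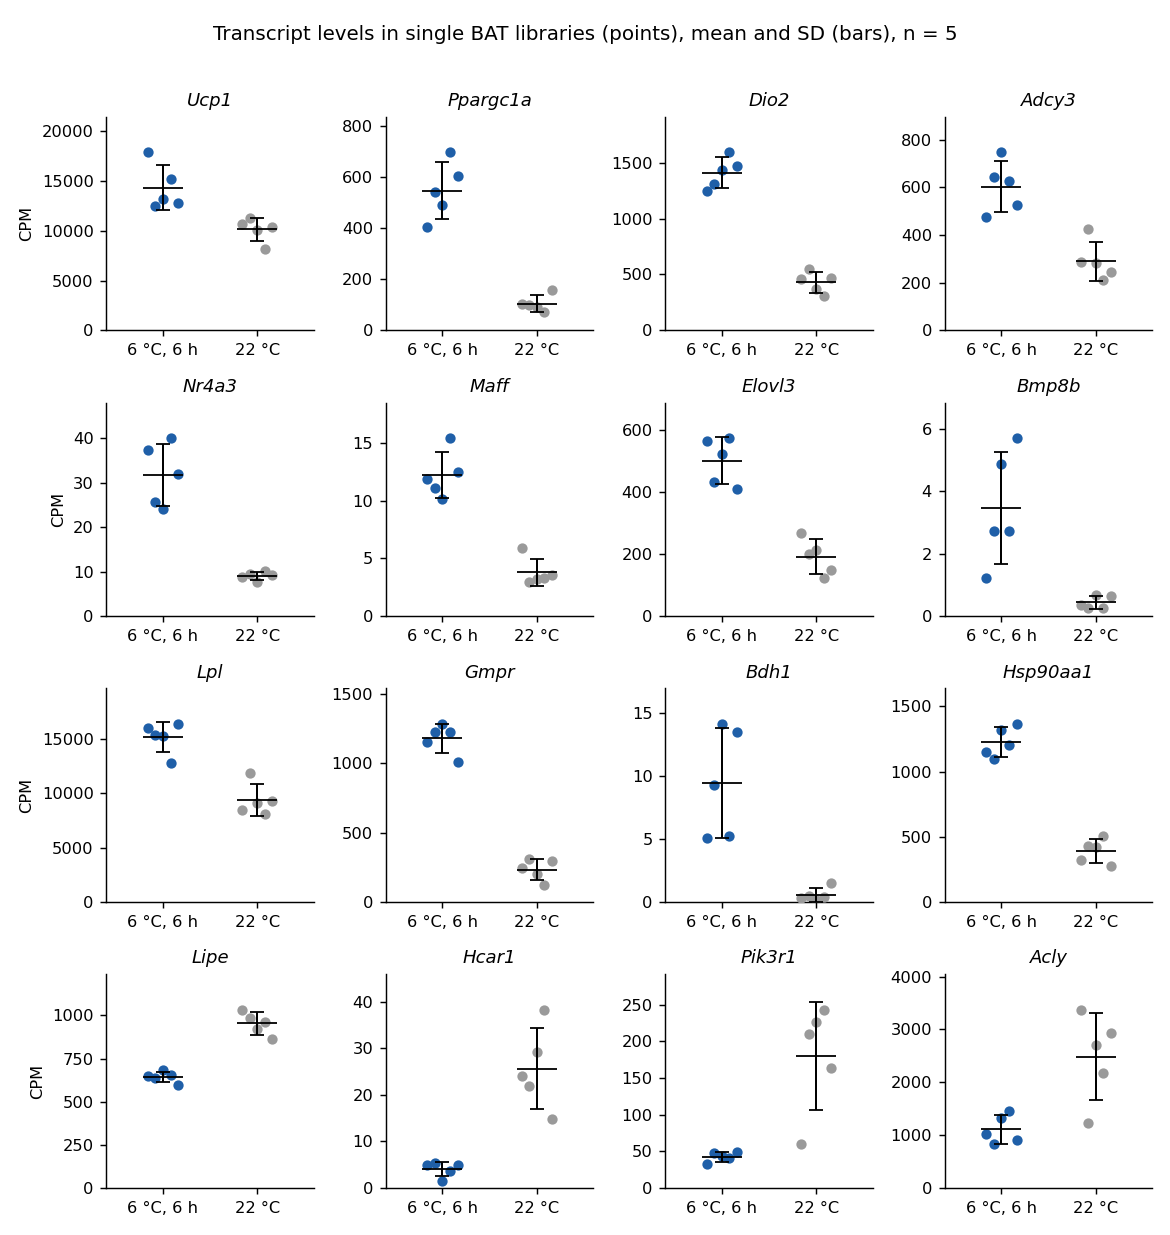
CPM of 16 genes in each BAT library after 6 h at 6 °C (left, blue) and at 22 °C (right, grey), with bars for the mean and SD of 5 libraries. In all panels but that of Acly, where 22 °C replicate 2 lies inside the 6 h range, the libraries of the groups do not overlap. The first 12 genes were higher at 6 h (Ppargc1a 407 to 698 CPM against 70.6 to 158 CPM at 22 °C) and the last 4 were lower (Hcar1 1.46 to 5.28 CPM against 14.8 to 38.2 CPM at 22 °C).

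Gk, the glycerol kinase that lets brown fat reuse glycerol, rose to 1874 ± 81.6 CPM at 6 h against 1099 ± 194 CPM at 22 °C (log2 0.77 ± 0.10, adjusted p = 3.8e-05, and 0.266 with all 30 libraries). Kcnk3, a potassium channel of brown adipocytes, rose to 805 ± 97.3 CPM at 6 h against 492 ± 69.4 CPM at 22 °C (log2 0.71 ± 0.11, adjusted p = 0.00018, and 0.0675 with all 30 libraries). Ppif, a mitochondrial cyclophilin, rose by 0.66 ± 0.07 on the log2 scale. Cidea (log2 -0.04 ± 0.09), Cox7a1 (-0.01), Cox8b (-0.06), Otop1 (-0.05) and the fatty acid importer Cpt1b (0.06 ± 0.18), which are also common brown fat markers, were not called. Over the effector list 12 of 26 tested members rose and none fell (median 0.12). The count was also 12 with the muscle covariate and without the muscle-rich libraries, and 5 with all 30 libraries in the fit. Without 6 h replicate 3, 12 rose and 2 fell.

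Creatine and calcium cycling, further routes of heat production, were examined by their genes. Ckb (ENSMUSG00000001270), a creatine kinase of the creatine cycle, had 124, 113, 143, 103 and 134 CPM at 6 h and 25.5, 36.4, 17.9, 24 and 29.8 CPM at 22 °C (log2 2.21 ± 0.18, adjusted p = 1.3e-06). Each 6 h library was far above each 22 °C library. The phosphatases Alpl (log2 0.73 ± 0.14) and Phospho1 (0.76) of that cycle rose, as did the calcium pump gene Atp2a2 (0.44 ± 0.07). The mitochondrial calcium uniporter Mcu (log2 -0.33) and its regulator Micu2 (-0.39 ± 0.06) fell. Muscle genes of the same list, such as Ckmt2 (log2 -3.66) and Ryr1 (-2.64), were not called. In all 4 of 19 tested members rose and 2 fell, with a median of -0.04.

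Fuel handling divided by step. Genes of lipid uptake and triglyceride synthesis rose in 14 of 36 tested members and fell in 3, with a median of 0.17. Lpl (ENSMUSG00000015568), the lipase that frees fatty acids from blood lipoproteins, had 16021, 15390.4, 15299.6, 12785 and 16365 CPM at 6 h and 8453, 11865, 9094, 8125 and 9266 CPM at 22 °C. No 6 h library fell into the 22 °C range (log2 0.70 ± 0.09, adjusted p = 5.1e-05). The fatty acid receptor Cd36 rose to 3419.5 ± 280.1 CPM at 6 h against 2684 ± 134 CPM at 22 °C (log2 0.35 ± 0.07).

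Gpihbp1, which anchors the lipase to capillaries, was called higher by 0.39 on the log2 scale, but not with the muscle covariate. Mfsd2a, a transporter of lysophospholipids, had 145, 90.4, 119, 88.8 and 111 CPM at 6 h and 32.3, 34.9, 21.4, 19.9 and 22.1 CPM at 22 °C (log2 2.09 ± 0.18). The 2 enzymes that close triglyceride synthesis went apart. Dgat1 rose to 443 ± 53.2 CPM at 6 h against 259.5 ± 27.1 CPM at 22 °C (log2 0.77 ± 0.10), and Dgat2 fell (log2 -0.64, adjusted p = 0.00522). The largest fall of the list was that of Acsl6 (log2 -3.14, adjusted p = 0.0429), which was not called with the muscle covariate. In the muscle covariate fit 9 members rose and 5 fell, without the muscle-rich libraries 8 rose and 2 fell, and without 6 h replicate 1 alone 13 rose and 5 fell.

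Of 26 tested lipolysis and droplet genes 8 fell and 4 rose, with a median of -0.09. In the fit with the muscle covariate 7 fell and 1 rose (median -0.20), without the muscle-rich libraries 6 fell and 2 rose, and without 6 h replicate 4 alone 5 fell and 3 rose. Lipe (ENSMUSG00000003123), hormone-sensitive lipase, had 648, 636, 682, 656 and 599 CPM at 6 h and 1032, 988, 923, 961 and 861 CPM at 22 °C. The groups were well apart and tight (log2 -0.57 ± 0.06, adjusted p = 1.2e-05). Hcar1 (ENSMUSG00000049241), the lactate receptor that restrains lipolysis, showed the largest fall by the naming rule. It had 4.94, 5.28, 1.46, 3.58 and 4.82 CPM at 6 h and 24, 21.9, 29.1, 38.2 and 14.8 CPM at 22 °C (log2 -2.67 ± 0.32, adjusted p = 2.5e-05).

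Hcar2, the related receptor for ketone bodies and niacin, fell to 0.72 ± 0.323 CPM at 6 h against 4.28 ± 2.21 CPM at 22 °C (log2 -2.57 ± 0.41). Both receptors oppose cAMP, so they act on the opposite side from Lipe. Pnpla2, adipose triglyceride lipase and the main starting enzyme, was not called (log2 -0.23 ± 0.11, adjusted p = 0.156), but was called lower without 6 h replicate 1 (0.0133). The droplet protein Cidec fell by 0.33 on the log2 scale, and Plin5, which links droplets to mitochondria, was called higher (log2 0.37, adjusted p = 0.0456) but not with the muscle covariate. Fitm1, a droplet gene abundant in muscle, was called lower (log2 -3.89), but not with that covariate.

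Fatty acid oxidation enzymes were mostly uncalled or lower. Of 33 tested members 1 rose, 8 fell and the median was -0.13. Abcd2, a peroxisomal importer of very long fatty acids, fell to 31.2 ± 8.56 CPM at 6 h against 80.7 ± 24.7 CPM at 22 °C (log2 -1.37 ± 0.22). Crot, a peroxisomal carnitine transferase, fell by 0.55 ± 0.08 and the thiolase Acaa1a, which has the close copy Acaa1b, by 0.42 ± 0.08 on the log2 scale. Hadh, a mitochondrial dehydrogenase of the same pathway, fell to 1007 ± 87.9 CPM at 6 h against 1237 ± 28.1 CPM at 22 °C (log2 -0.30 ± 0.06, adjusted p = 0.00161, and 0.0964 with all 30 libraries). Acadvl, Acadl, Hadha and Hadhb, mitochondrial enzymes for long chains, lay between 0.00 and 0.04 in size and were not called. The list depended on 6 h replicate 1, the library with the highest mitochondrial share: without it 13 members fell and 2 rose. On log2 FPKM 13 fell and 1 rose, and with all 30 libraries 4 fell.

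Acyl-CoA thioesterases, which split fatty acyl-CoA back into free acids, rose in 6 of 12 tested members with none lower (median 0.28). Acot5 (ENSMUSG00000042540), a peroxisomal member, showed the largest rise by the naming rule. It had 8.31, 6.53, 8.28, 11.6 and 7.48 CPM at 6 h and 0.379, 0.0787, 0.643, 0.511 and 0 CPM at 22 °C, so it was close to absent at 22 °C (log2 4.66 ± 0.46, adjusted p = 5.8e-06). Acot12 (log2 1.66 ± 0.25), Acot6 (0.84), Them4 (0.80 ± 0.08), Acot8 (0.54 ± 0.10) and Acot4 (0.53, not called with the muscle covariate) also rose, while Acot1 (-0.01) and Acot2 (-0.19) were not called. Several Acot genes are close copies of each other, and how reads shared among them were counted is not given in the sources used here.

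Fatty acid synthesis and chain elongation parted. Acly (ENSMUSG00000020917), which makes acetyl-CoA for lipogenesis from citrate, had 1015, 837, 1319.9, 1458 and 908 CPM at 6 h and 3368, 1237, 2699, 2169.9 and 2940.0 CPM at 22 °C. One 22 °C library, replicate 2, lay inside the 6 h range (log2 -1.16 ± 0.29, adjusted p = 0.00887). Fasn, fatty acid synthase, had 6943, 6503, 8246, 9507 and 5305 CPM at 6 h and 14881, 8757, 13344, 11814 and 11398 CPM at 22 °C, with the same 22 °C library inside the 6 h range. Its call (log2 -0.72 ± 0.22, adjusted p = 0.023) was lost without 6 h replicate 5 (0.0551), 22 °C replicate 1 (0.06) or 3 (0.0511), without the muscle-rich libraries (0.0649) and with all 30 libraries (0.0617).

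Thrsp, a thyroid-responsive gene of lipogenesis, had 1123, 759.8, 937, 766 and 859 CPM at 6 h and 2296, 1365, 1950.0, 1994 and 2145 CPM at 22 °C (log2 -1.13 ± 0.16). The citrate carrier Slc25a1 (log2 -0.71), Insig1 (-0.68), Srebf1 and the glucose-sensing factor Mlxipl (-0.27) fell as well. Rises came from elongation. Beside Elovl3, Hacd2, a dehydratase of the elongation cycle, rose to 672 ± 57.6 CPM at 6 h against 378 ± 40.5 CPM at 22 °C (log2 0.83 ± 0.08), and the scarce elongases Elovl7 (2.36 ± 0.32) and Elovl4 (1.97) rose too. The desaturases Scd1 (0.17) and Scd2 (-0.38) were not called. Over the whole list 7 of 33 tested members rose and 8 fell, with a median of -0.07, and without 6 h replicate 5 alone 4 rose and 6 fell.

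Ketone body genes included a large rise and a large fall. Bdh1 (ENSMUSG00000046598), the mitochondrial enzyme that interconverts the ketone bodies β-hydroxybutyrate and acetoacetate, had 5.05, 9.3, 14.1, 5.2 and 13.5 CPM at 6 h and 0.31, 0.511, 0.161, 0.375 and 1.49 CPM at 22 °C (log2 4.03 ± 0.49, adjusted p = 2.8e-05). Aacs, the cytosolic enzyme that turns acetoacetate into a lipid precursor, had 75.3, 62.6, 104, 77.5 and 72.8 CPM at 6 h and 245, 263, 277, 246 and 209.9 CPM at 22 °C. The groups of both genes were far apart, and Aacs fell by 1.66 ± 0.18 on the log2 scale (adjusted p = 1.1e-05). Of the carriers that take up ketone bodies, pyruvate and lactate, Slc16a1 rose (log2 0.40 ± 0.08, adjusted p = 0.00137, and 0.225 with all 30 libraries) and Slc16a7 fell (-1.07 ± 0.21). These were the 4 called members of 9 tested.

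Among genes of glucose uptake and glycolysis, Slc2a4, the insulin-responsive glucose transporter, had 608, 472, 639.9, 555 and 532 CPM at 6 h and 463, 374, 418, 388 and 471 CPM at 22 °C. The groups did not overlap, but the top 22 °C library lay just below the lowest 6 h library (log2 0.41 ± 0.10, adjusted p = 0.00538, and 0.0619 with the muscle covariate). Hk1, a hexokinase, rose to 50.6 ± 5.01 CPM at 6 h against 30.2 ± 3.7 CPM at 22 °C (log2 0.74 ± 0.11) and Pfkp, a platelet-type phosphofructokinase, to 219 ± 15.7 CPM at 6 h against 134 ± 9.65 CPM at 22 °C (log2 0.71 ± 0.07).

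Slc2a1 (log2 0.40 ± 0.15, adjusted p = 0.0621) and Hk2 (0.37 ± 0.14, adjusted p = 0.0627) were not called, though Slc2a1 was without 6 h replicate 1 (0.0424) and Hk2 was without 22 °C replicate 1 (0.0497) and by DESeq2 (0.0272). Eno3 (log2 -2.87), Pgam2 (-2.86) and Pfkm (-1.01), the muscle forms of glycolytic enzymes, were called lower. None of the 3 was called with the muscle covariate, and they moved beside the muscle sums of 141 to 1884 CPM at 6 h and 423 to 9704 CPM at 22 °C. Eno3 is itself among the markers summed for that covariate, so its lost call is no independent result. In all 6 of 29 tested members rose and 4 fell (median 0.08). With the covariate 3 rose and 1 fell, without the muscle-rich libraries 5 rose and none fell, and with all 30 libraries 3 rose and 3 fell. The falls also moved with single libraries, to 1 without 22 °C replicate 5, 2 without 6 h replicate 1, 3, 4 or 5 or 22 °C replicate 4, and 7 without 22 °C replicate 2.

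The kinases Pdk2 (log2 -0.51 ± 0.07) and Pdk1 (-0.52 ± 0.09), which switch off pyruvate dehydrogenase, fell without overlap between groups, whereas Pdk4, an abundant form induced by fasting, stood at 1695 to 2788 CPM at 6 h and 1804 to 2553 CPM at 22 °C (log2 0.06 ± 0.13). These were the 2 called of 15 tested genes of the complex and its regulators. Pygb, brain-type glycogen phosphorylase, fell by 0.86 ± 0.12 and Epm2a, the glycogen phosphatase laforin, by 1.14 ± 0.20 on the log2 scale, while Gys2, a glycogen synthase, rose by 0.33 ± 0.06 (adjusted p = 0.00169, and 0.216 with all 30 libraries). Of 23 tested glycogen genes 2 rose and 4 fell.

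Respiratory chain transcripts were almost all uncalled. Of 49 nuclear genes of the chain and ATP synthase 1 was called, Cycs, which encodes cytochrome c, at 1821 ± 214 CPM at 6 h and 1439.5 ± 72.2 CPM at 22 °C (log2 0.34 ± 0.07, adjusted p = 0.00313, and 0.216 with all 30 libraries). The median over the 49 was 0.04. None of 13 mitochondrially encoded genes was called (median 0.06). Of 18 tricarboxylic acid cycle genes 1 was called higher, Idh3a (log2 0.19 ± 0.05, adjusted p = 0.0199). It was not called without 6 h replicate 3 (0.0595) or 5 (0.0576), without 22 °C replicate 4 (0.0581), on log2 FPKM with a pseudocount of 0.1 (0.055), with all 30 libraries (0.376), with the muscle covariate (0.149) and without the muscle-rich libraries (0.072). Without 6 h replicate 1 the counts were 5 for the chain (1 higher, 4 lower), 2 lower for mitochondrially encoded genes and 3 for the cycle (1 higher, 2 lower).

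Genes that build and maintain mitochondria stood apart from the chain itself: 12 of 36 tested members rose and 3 fell, with a median of 0.12. Tomm20 (log2 0.35 ± 0.06), Tomm70a (0.37 ± 0.06) and Timm17a (0.44 ± 0.07), parts of the import gates for proteins made in the cytosol, rose. Gfm1, a mitochondrial translation factor, rose by 0.49 ± 0.07 and the chaperonin pair Hspd1 and Hspe1 by 0.39 and 0.64. Pink1, a kinase that marks damaged mitochondria for removal, was called lower (log2 -0.31), but not with the muscle covariate. With that covariate 7 members rose and 2 fell. Without the muscle-rich libraries, and without 22 °C replicate 4 alone, 8 rose and 1 fell, and with all 30 libraries 7 rose and 1 fell.

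**Figure D4:**
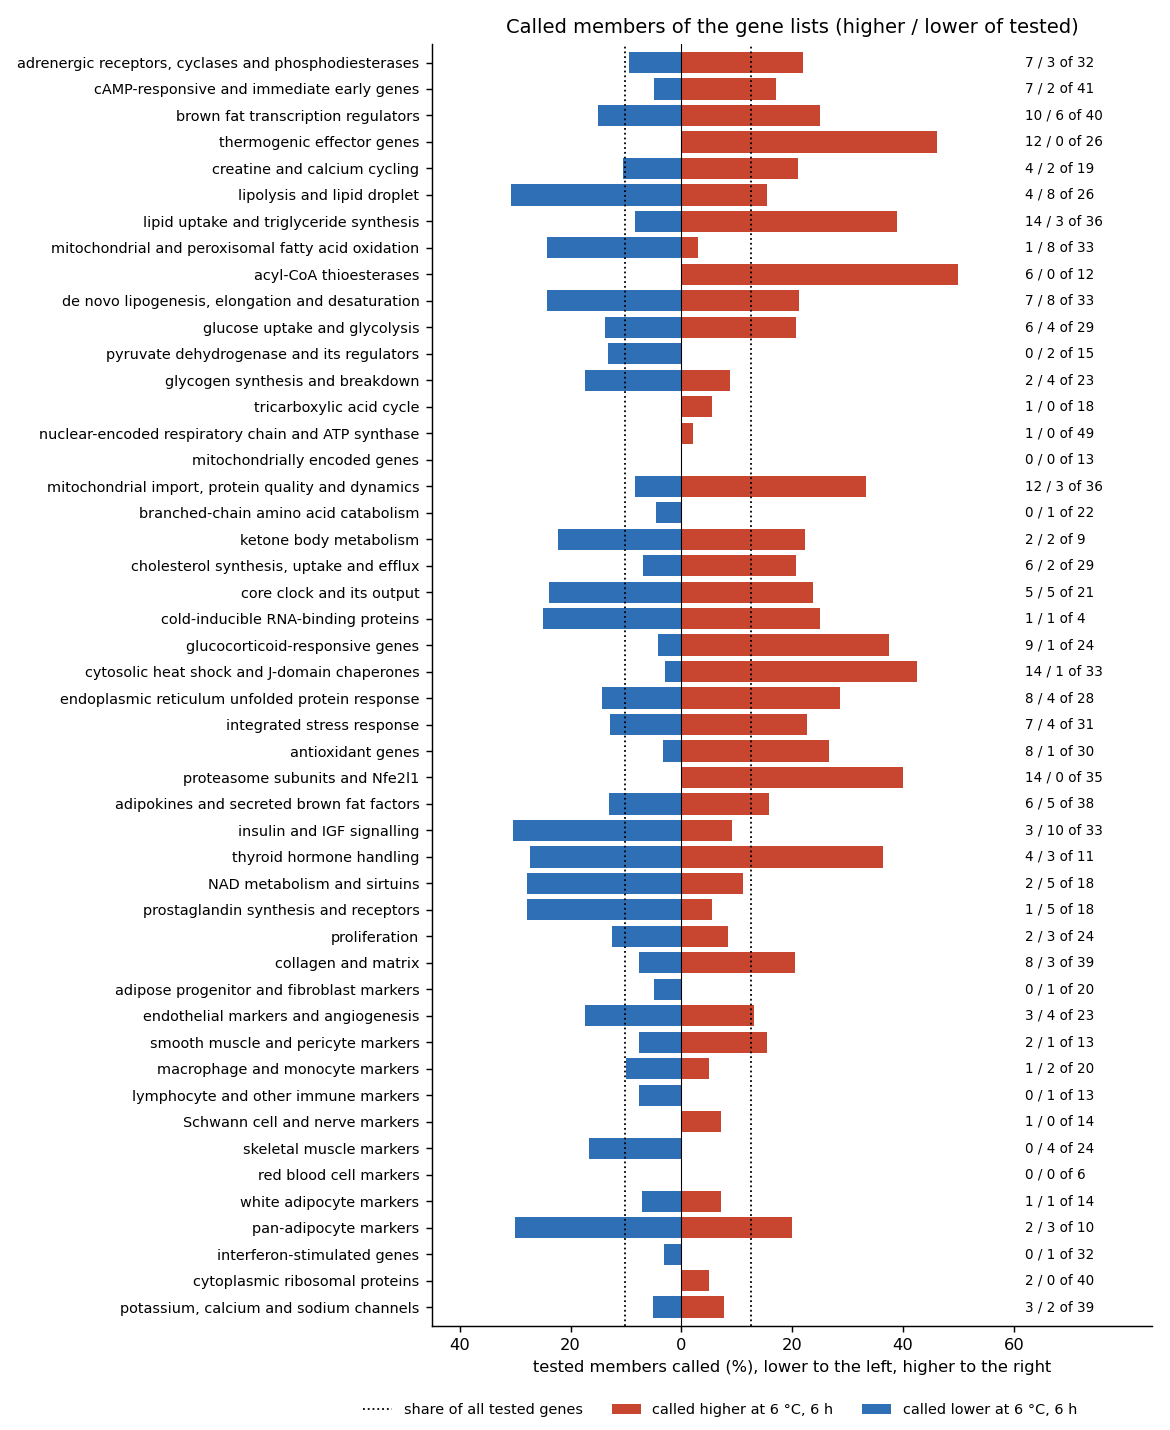
Share of the tested members of each of 48 gene lists called higher (red, to the right) or lower (blue, to the left) after 6 h at 6 °C, with the counts beside each bar and dotted lines at the shares over all tested genes (12.5% higher, 10.2% lower). Acyl-CoA thioesterases (6 of 12), thermogenic effectors (12 of 26), heat shock genes (14 of 33) and proteasome subunits (14 of 35) had the highest shares of members called higher. The lists were chosen with earlier results of these data known.

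Chaperones of the cytosol formed one of the groups with most rises, 14 of 33 tested members, with 1 fall and a median of 0.27. Hsp90aa1 (ENSMUSG00000021270), the inducible HSP90, had 1148, 1097, 1322, 1207 and 1365 CPM at 6 h and 319.8, 431, 424, 504 and 279 CPM at 22 °C (log2 1.65 ± 0.14, adjusted p = 1.3e-06). Hspa4l, an HSP110 family member, had 161, 196, 196, 194 and 207 CPM at 6 h and 47.7, 61.7, 63.5, 58.2 and 51.3 CPM at 22 °C (log2 1.76 ± 0.11, adjusted p = 1.4e-07). The lowest 6 h library of each lay far above the highest 22 °C library.

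Hsp90ab1 rose to 1910.1 ± 323 CPM at 6 h against 979 ± 101 CPM at 22 °C (log2 0.96 ± 0.11), and Hspa8 (1.00), the constitutive HSP70, and its partner Dnaja4 (1.21 ± 0.15) rose beside it. Hspa1b, the classic heat-inducible HSP70 with the near-identical copy Hspa1a, had 34.6, 18, 4.78, 17.7 and 11 CPM at 6 h and 4.17, 10.1, 15.8, 62 and 1.34 CPM at 22 °C. These ranges overlapped widely and the gene was not called (log2 -0.12 ± 0.73). Hspb6, the member that fell (log2 -1.67), is abundant in muscle and was not called with the muscle covariate, under which 9 members rose and none fell. Without 6 h replicate 2, 14 rose and 3 fell.

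Proteasome genes rose by small amounts: 14 of 35 tested members rose, none fell, and 31 of the 35 had a positive value (median 0.22). Psma6 rose to 242 ± 31.5 CPM at 6 h against 172 ± 7.13 CPM at 22 °C (log2 0.49 ± 0.08) and Psmd12 by 0.44 ± 0.06. Nfe2l1, a factor that drives proteasome genes, was not called (-0.12). With the muscle covariate 4 members rose, and without the muscle-rich libraries 6 rose. The part of muscle RNA in these changes was not tested further.

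In the endoplasmic reticulum, 8 of 28 tested genes of the unfolded protein response rose and 4 fell, with a median of -0.01. Manf, a secreted stress protein, had 102, 72.3, 87, 98.4 and 80.2 CPM at 6 h and 37.7, 33.8, 37.1, 36.6 and 44.3 CPM at 22 °C (log2 1.21 ± 0.10). Sdf2l1 (1.31), the lectin chaperone Canx (0.57 ± 0.06) and the master chaperone Hspa5 (0.34 ± 0.05) rose, while the response factor Xbp1 (-0.68) and the disulfide isomerase Pdia6 (-0.38 ± 0.06) fell.

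Of 31 integrated stress response genes 7 rose and 4 fell (median -0.20), among them Atf5 (0.66 ± 0.14), Atf4 (0.29, adjusted p = 0.0491, not called with the muscle covariate) and Gdf15, a stress hormone, at 0.269, 0.466, 1.17, 0.676 and 0.782 CPM at 6 h and 0.413, 0.0787, 0.0804, 0.239 and 0.0292 CPM at 22 °C. Gdf15 was scarce and overlapped between groups. Its call (log2 2.01 ± 0.61, adjusted p = 0.025) was lost without 6 h replicate 3 (0.0742) or 5 (0.0517), without 22 °C replicate 2 (0.0533), 3 (0.0639) or 5 (0.057), without the muscle-rich libraries (0.104), with all 30 libraries (0.0641) and on log2 FPKM with a pseudocount of 1 (0.12). With the muscle covariate 4 members of the list rose and 3 fell, and without the muscle-rich libraries 3 rose and 2 fell.

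Antioxidant genes rose in 8 of 30 tested members and fell in 1 (median -0.02). Srxn1, which repairs peroxiredoxins, rose by 0.82 ± 0.08 and Txnrd1, thioredoxin reductase, by 0.59 ± 0.07 on the log2 scale. With the muscle covariate 3 rose and 2 fell, and without the muscle-rich libraries 4 rose and 1 fell. Without 6 h replicate 1 alone 5 rose and 5 fell, and without 6 h replicate 4 or 22 °C replicate 3, 4 or 5 alone 5 rose and 1 fell.

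The clock differed between the groups, and the labels used here do not say at what hour either was collected. Bmal1, the positive arm of the clock, had 12.5, 9.88, 6.21, 10.2 and 9.12 CPM at 6 h and 1.24, 2.4, 1.85, 1.26 and 2.07 CPM at 22 °C (log2 2.44 ± 0.28, adjusted p = 2e-05). Dbp, an output factor driven by Bmal1 and Clock, had 15.9, 18.3, 18.3, 20.9 and 19.1 CPM at 6 h and 48.5, 39.7, 50.9, 48 and 41.1 CPM at 22 °C (log2 -1.30 ± 0.10, adjusted p = 9.1e-07). These groups were far apart, in opposite directions. Cry1 (0.65), Clock (0.43) and Nfil3 (0.88), a repressor of Dbp targets, rose, and Per3 (-0.87 ± 0.14) and Hlf (-0.86 ± 0.12) fell.

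Per1 was not called (log2 0.05 ± 0.12). Nr1d1, which encodes the Bmal1 repressor REV-ERBα, had 52.7, 65.5, 76.9, 72.3 and 65.7 CPM at 6 h and 73.5, 79.6, 83.5, 97.6 and 81.6 CPM at 22 °C, and the ranges overlapped. With the muscle covariate its log2 fold change was -0.35. Its call (log2 -0.32 ± 0.11, adjusted p = 0.044) was lost without 6 h replicate 1 (0.0858), 2 (0.0587) or 5 (0.0663), without 22 °C replicate 2 (0.0545), 3 (0.075), 4 (0.124) or 5 (0.064), with the muscle covariate (0.0813), without the muscle-rich libraries (0.217), with no filter on low counts (0.0518) and with all 30 libraries (0.0512). Over the list 5 of 21 tested members rose and 5 fell (median -0.10), and 4 rose and 3 fell with the muscle covariate and without the muscle-rich libraries. Whether time of day or cold goes with these changes cannot be told apart.

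Glucocorticoid-responsive genes rose in 9 of 24 tested members and fell in 1, with a median of 0.36. Cdkn1a, the cell cycle inhibitor p21, had 206, 161, 140.5, 188 and 146 CPM at 6 h and 42.2, 41.1, 31.2, 39.9 and 62.2 CPM at 22 °C (log2 1.96 ± 0.19). Zbtb16 (log2 1.89) and the kinase Sgk1 (0.61 ± 0.13) rose. Fkbp5, a feedback regulator of the receptor, had 10.4, 15.8, 13, 13.3 and 18.5 CPM at 6 h and 5.72, 6.41, 7.08, 10.3 and 10.6 CPM at 22 °C, the ranges just overlapping. The call of Fkbp5 (log2 0.83 ± 0.25, adjusted p = 0.023) was lost without 6 h replicate 2 (0.0506) or 5 (0.073), without 22 °C replicate 1 (0.0588), 2 (0.0517) or 3 (0.0543) and on log2 FPKM with a pseudocount of 1 (0.0809). The count of the list fell to 5 rises and 1 fall without 6 h replicate 5, 22 °C replicate 2 or 4, or the muscle-rich pair, and on that FPKM scale, and to 4 rises and 1 fall without 22 °C replicate 3. There were 6 rises and 1 fall with the muscle covariate.

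Insulin and IGF signalling genes fell in 10 of 33 tested members and rose in 3 (median -0.06), in 8 and 1 with the muscle covariate, and in 9 and 5 without 6 h replicate 1. Pik3r1 (ENSMUSG00000041417), the p85α regulatory subunit of phosphoinositide 3-kinase, had 32.1, 47.9, 43.1, 40.6 and 48.8 CPM at 6 h and 59.5, 210.5, 226, 243 and 163 CPM at 22 °C. The 22 °C replicate 1 lay far below the other 22 °C libraries, though above every 6 h library (log2 -2.08 ± 0.26, adjusted p = 3.9e-05). Irs1 (log2 -0.78), an insulin receptor substrate, Akt2 (-0.55 ± 0.07) and the adaptor Grb14 (-1.12) fell. Igfbp5 fell to 42 ± 11 CPM at 6 h against 108 ± 12.2 CPM at 22 °C (log2 -1.36 ± 0.14), while its relative Igfbp3, another carrier of insulin-like growth factors, rose to 51.6 ± 9.91 CPM at 6 h against 20.7 ± 2.32 CPM at 22 °C (log2 1.32 ± 0.16). Trarg1, which helps Slc2a4 reach the cell surface, fell to 64.5 ± 11.1 CPM at 6 h against 181 ± 33.1 CPM at 22 °C (log2 -1.49 ± 0.20). The list also holds the pyruvate dehydrogenase kinase gene Pdk1, given above, which is one of the 10 falls but no insulin signalling gene.

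Of 38 tested genes of secreted factors 6 rose and 5 fell, with a median of -0.07, beside 12.5% higher and 10.2% lower over all tested genes. Bmp8b (ENSMUSG00000002384), a bone morphogenetic protein that brown fat secretes, had 1.24, 2.74, 4.87, 2.74 and 5.7 CPM at 6 h and 0.344, 0.275, 0.67, 0.273 and 0.641 CPM at 22 °C (log2 2.93 ± 0.39, adjusted p = 6.1e-05). It was scarce in both groups but did not overlap. Fgf9, a growth factor, rose to 9.43 ± 2.3 CPM at 6 h against 2.64 ± 0.811 CPM at 22 °C (log2 1.83 ± 0.21). Igf1 fell to 16.6 ± 4.79 CPM at 6 h against 41.8 ± 14.8 CPM at 22 °C (log2 -1.33 ± 0.23), and the peptide Apln to 2.8 ± 0.54 CPM at 6 h against 6.89 ± 2.33 CPM at 22 °C (log2 -1.29 ± 0.21).

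Aplnr, the apelin receptor of vessels, fell as well (log2 -1.60 ± 0.22). Fgf21 (log2 0.78 ± 0.50), Vegfa (0.17 ± 0.09) and Adipoq (-0.22 ± 0.15, adjusted p = 0.312) were not called, although Adipoq was without 6 h replicate 1 (0.0419). Lep, the leptin gene, stood at 2.26 to 14.7 CPM at 6 h and 12.5 to 25 CPM at 22 °C and was not called (log2 -1.15 ± 0.43, adjusted p = 0.0627). It was called without 6 h replicate 5 (0.032), on log2 FPKM (0.024 with a pseudocount of 1 and 0.041 with 0.1) and without the 24 h libraries in the fit (0.0332). With all 30 libraries 3 members of the list rose and 4 fell, with the muscle covariate and without 22 °C replicate 4 alone 6 rose and 3 fell, and without the muscle-rich pair 5 rose and 3 fell.

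Several of the largest changes lay outside these groups. Gmpr, guanosine monophosphate reductase, an enzyme that turns guanine into adenine nucleotides, had 1152, 1222, 1281, 1223 and 1008 CPM at 6 h and 242, 307, 205, 122 and 293 CPM at 22 °C. It was the most abundant gene among the 12 largest rises at 6 h (log2 2.33 ± 0.18, adjusted p = 8.7e-07). Cyp2b10, a cytochrome P450 with close copies, had 97.6, 71.7, 38.6, 8.21 and 75.3 CPM at 6 h and 3.17, 3.11, 1.15, 6.44 and 5.42 CPM at 22 °C, with 6 h replicate 4 barely above the 22 °C range (log2 3.92 ± 0.98, adjusted p = 0.00849). Nnmt, which methylates nicotinamide and so draws on NAD precursors, rose to 233 ± 34 CPM at 6 h against 68.1 ± 19.8 CPM at 22 °C (log2 1.77 ± 0.16).

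Npr3, the clearance receptor that removes natriuretic peptides, had 122, 237, 291, 295 and 279 CPM at 6 h and 67.5, 73, 66.1, 51.5 and 96 CPM at 22 °C (log2 1.79 ± 0.24). The remaining large rises were Cldn1, a tight junction protein (2.76 ± 0.24), E2f2, a cell cycle transcription factor (2.75 ± 0.22), Cend1, first described in neurons leaving the cell cycle (2.44 ± 0.15), and Arhgef37, an exchange factor for small GTPases (2.37 ± 0.30). The remaining large falls were Svep1, a matrix protein (-1.99 ± 0.25), Ntrk3, the receptor of neurotrophin 3 (-1.75 ± 0.19), Igfals, a carrier subunit for insulin-like growth factors in blood (-1.72 ± 0.23), Tmem179 (-1.67 ± 0.20), Steap4, a metal reductase (-1.65 ± 0.18), Angpt1, a ligand of the vessel receptor Tie2 (-1.50 ± 0.19), and Sntb1, a syntrophin of the membrane skeleton (-1.50 ± 0.15). No overlap between groups was a condition for naming each of these 11, as for all of the 12 largest rises and 12 largest falls.

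Sterol genes rose in part: 6 of 29 tested members were called higher and 2 lower, with a median of 0.12. Sqle, squalene epoxidase, rose by 1.15 ± 0.21 and Hsd17b7, a later enzyme of cholesterol synthesis, by 1.29 ± 0.20 on the log2 scale. Abca1, which exports cholesterol, fell by 0.68 ± 0.12. Msmo1 (0.75), an enzyme of the same pathway, and Srebf2 (0.48), its transcription factor, were called higher, but neither was with the muscle covariate, under which 2 members of the list were higher and 4 lower. Without the muscle-rich libraries 3 were higher and 3 lower, and without 6 h replicate 1 alone 5 were higher and 5 lower.

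Of 11 thyroid hormone genes 4 rose and 3 fell, Dio2 above being the largest rise. Of 18 NAD genes 2 rose and 5 fell, Nnmt above being the largest rise, and with the muscle covariate or without the muscle-rich pair 1 rose and 3 fell. Of 18 prostaglandin genes 1 rose and 5 fell (none and 3 with that covariate, 1 and 3 without that pair), with Ptger3, a receptor that lowers cAMP, at -0.96 ± 0.13. Of 22 branched-chain amino acid genes 1 was called, the kinase Bckdk that switches off their breakdown (-0.43 ± 0.08). That count was 3 falls without 6 h replicate 1 or 5, and 2 rises and 1 fall without 6 h replicate 4. Of 24 proliferation genes 2 rose and 3 fell, and of 40 cytoplasmic ribosomal protein genes 2 rose (4 without 6 h replicate 2, and none without 22 °C replicate 2, with the covariate or without the pair). Of 39 channel genes 3 rose and 2 fell. Without 6 h replicate 2 alone 3 rose and 8 fell, without 22 °C replicate 2 alone 2 rose and 6 fell, with the covariate 5 rose and 1 fell, and without the pair 4 rose and none fell.

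Genes that mild cooling of cells induces were mostly uncalled. Rbm3 had 57.6, 59.2, 52, 46.9 and 58.5 CPM at 6 h and 47.8, 48.4, 57.2, 51.2 and 54.9 CPM at 22 °C (log2 0.08 ± 0.10), and Cirbp was not called either (-0.28 ± 0.15). The 4 tested genes of that list gave 1 higher call (Rbmx) and 1 lower call (Srsf5, log2 -0.23 ± 0.08, adjusted p = 0.0446). Srsf5 lost its call in 7 of the 10 fits without 1 library (adjusted p 0.0555 to 0.1), and also with no filter on low counts (0.059), with 2 groups (0.0505) or all 30 libraries (0.0748) in the fit, with the muscle covariate (0.171) and without the muscle-rich libraries (0.055). Rbmx was called neither with the covariate nor without the muscle-rich libraries.

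Markers of other cell types were called in part. Of 20 progenitor and fibroblast markers 1 was called (Cd55, log2 -0.69 ± 0.18), and not with the muscle covariate (0.147) or without the muscle-rich libraries (0.0705). Without 6 h replicate 3, 3 of the 20 fell. Their summed level was 879 to 1241 CPM at 6 h and 983.0 to 1607 CPM at 22 °C. Endothelial markers and angiogenesis genes gave 3 rises and 4 falls among 23 tested, Aplnr and Angpt1 being among the falls. With the muscle covariate, without the muscle-rich pair, or without 6 h replicate 3 or 22 °C replicate 3 or 4 alone, 1 rose and 4 fell. The adhesion protein Pecam1 rose by 0.55 ± 0.09, the receptor gene Tie1 fell by 0.44 ± 0.08, and Cdh5 (0.08) and Kdr (0.20) were not called. Among 39 collagen and matrix genes 8 rose and 3 fell: the basement membrane collagen gene Col4a2 reached 456 ± 81.5 CPM at 6 h against 275 ± 27.9 CPM at 22 °C (log2 0.73 ± 0.11) and Col4a1 607 ± 92.7 CPM at 6 h against 403 ± 40.2 CPM at 22 °C (log2 0.59 ± 0.11). Without the muscle-rich libraries 6 of the 39 rose and 1 fell, without 6 h replicate 4 alone 8 rose and 8 fell, and without 6 h replicate 2 alone 8 rose and 5 fell.

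Macrophage markers gave 1 rise and 2 falls among 20 tested, with summed levels of 150 to 213 CPM at 6 h and 149 to 254 CPM at 22 °C. Without 6 h replicate 3 or 4, or 22 °C replicate 2 or 5, that count was 1 fall, and DESeq2 called 2 rises and 3 falls. Lymphocyte and other immune markers summed to 12.8 to 17.3 CPM at 6 h and 19.6 to 27.4 CPM at 22 °C, without overlap. Of the 13 tested, 12 had a negative value (median -0.40) and 1 was called (Kit, a mast cell receptor, log2 -1.05 ± 0.20). Among Schwann cell markers 1 of 14 was called (Mal, a myelin protein, 1.63 ± 0.35) and among red blood cell markers none of 6. Smooth muscle markers gave 2 rises and 1 fall among 13, white adipocyte markers 1 rise and 1 fall among 14, and pan-adipocyte markers 2 rises and 3 falls among 10 (2 and 5 without 6 h replicate 1). Interferon-stimulated genes summed to 339.0 to 448 CPM at 6 h and 481 to 602 CPM at 22 °C, without overlap, and 26 of 32 had a negative value. Only the chemokine Cxcl9 was called among them (log2 -1.43 ± 0.43, adjusted p = 0.0233), and not without 6 h replicate 3 (0.0548) or 5 (0.0541), 22 °C replicate 4 (0.0512), the muscle-rich pair (0.073) or with the muscle covariate (0.126). The shared spread of this list includes 24 h replicate 4, whose sum was 2364.5 CPM against 454 to 598 CPM in the other 24 h libraries. In a fit of the 6 h and 22 °C libraries alone 11 members were called, all lower. By DESeq2 none was called, and for Cxcl9 that method gave no adjusted p.

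The 24 h libraries set the 6 h levels beside a later time in the cold. Comparisons of 6 h and of 24 h with 22 °C share the 22 °C libraries, so the test of a change between them is that of 24 h over 6 h, in which 1708 of 13090 genes were called (13.0%), 864 higher and 844 lower. On log2 FPKM with a pseudocount of 1 the split was 1143 higher and 524 lower. Nr4a3 had 5.92, 6.96, 5.7, 5.53 and 6.69 CPM at 24 h, below all 6 h libraries given above and below the 22 °C range too (24 h over 6 h log2 -2.37, adjusted p = 8.2e-08). Dio2 fell to 554, 827, 596, 628 and 652 CPM at 24 h against 1247 to 1591 CPM at 6 h (log2 -1.11, adjusted p = 0.00013). Cldn1 (-1.69), Hsp90aa1 (-1.19), Hspa4l (-1.04), Bmal1 (-1.11) and Cend1 (-1.01) were also lower at 24 h than at 6 h. Cldn1, Bmal1 and Cend1 were named for large rises at 6 h, a choice that favours a lower value at 24 h.

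Other genes were higher at 24 h than at 6 h. Bmp8b reached 18.2, 11.5, 8.75, 16.5 and 14.7 CPM at 24 h against 1.24 to 5.7 CPM at 6 h (log2 2.00, adjusted p = 0.00093). Ckb reached 497, 343, 455, 359 and 265 CPM at 24 h against 103 to 143 CPM at 6 h (log2 1.64, adjusted p = 5.3e-05), and every 24 h library of both genes lay above every 6 h library. Bdh1 (log2 1.34) and Elovl3 (0.78) were higher at 24 h, as were Cidea (0.49) and Nr1d1 (0.79), of which Cidea had not been called at 6 h. Between 24 h and 6 h Ucp1 (-0.24, adjusted p = 0.126), Ppargc1a (-0.31, adjusted p = 0.44), Lpl (-0.05) and Gmpr (0.35) were not called. The interval between those times was not sampled. The labels used here do not give the hour of collection at 6 h or 24 h. For Bmal1, Nr1d1 and the other genes, time of day and time in the cold thus cannot be told apart.

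**Figure D5:**
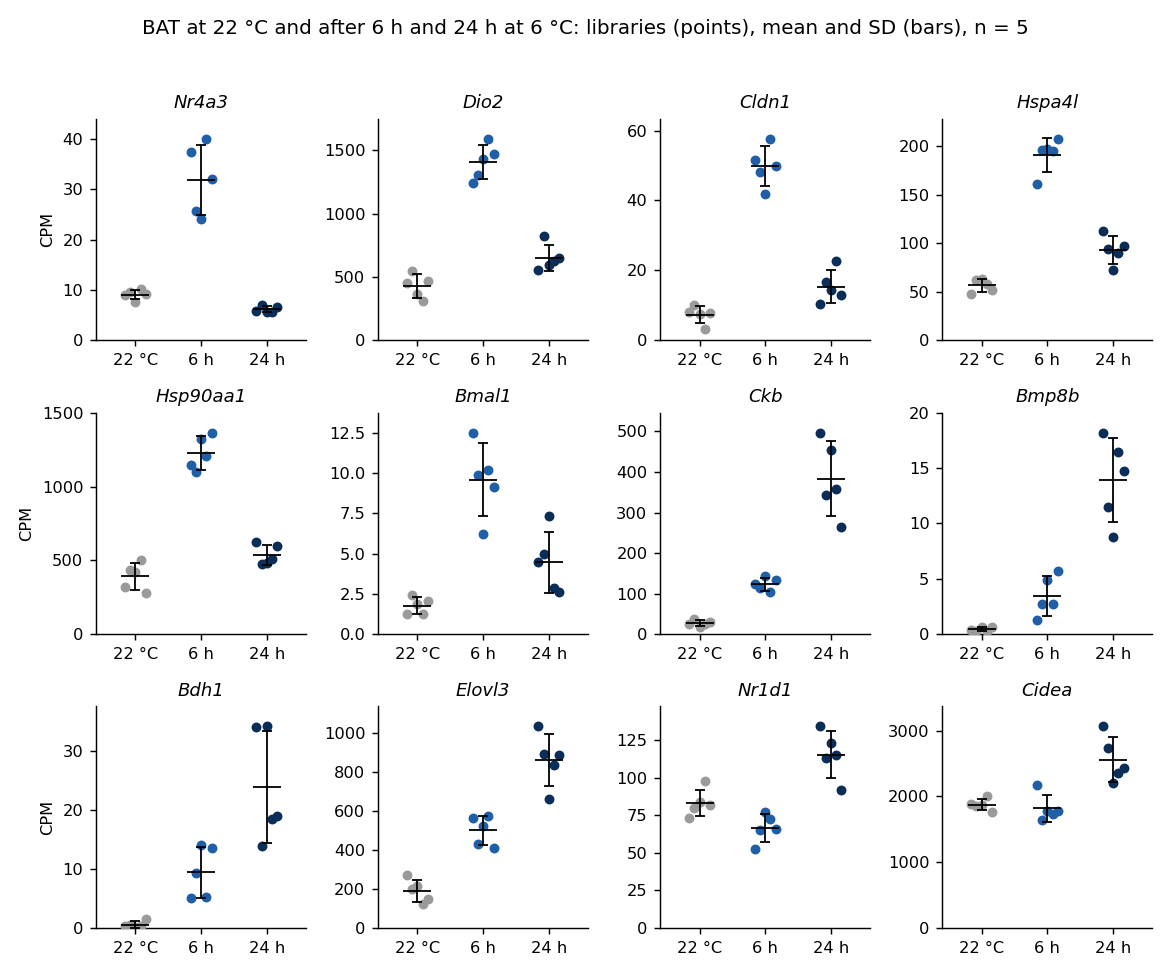
CPM of 12 genes in each BAT library at 22 °C, after 6 h and after 24 h at 6 °C, with bars for the mean and SD of 5 libraries. Nr4a3, Dio2, Cldn1, Hspa4l, Hsp90aa1 and Bmal1 stood highest at 6 h, Ckb, Bmp8b, Bdh1 and Elovl3 rose further to 24 h, and Nr1d1 and Cidea were higher at 24 h than at 6 h (log2 0.79 and 0.49).

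The 6 h change of BAT was set against that of iWAT with an interaction test over all 30 libraries, in which 1325 of 14089 genes were called (9.40%), 476 with the larger value in BAT and 849 with the larger value in iWAT. On log2 FPKM with a pseudocount of 1, 2606 were called, 2205 of them larger in BAT. Bdh1 differed most among the named genes, with a log2 fold change of 4.03 in BAT and -3.10 in iWAT (difference 7.14 ± 1.14, adjusted p = 0.00028). Ckb (2.21 in BAT, 0.10 in iWAT, adjusted p of the difference 3.8e-05), Cldn1 (2.76 in BAT, -0.19 in iWAT, 0.00151) and E2f2 (2.75 in BAT, 0.78 in iWAT, 0.00386) also changed more in BAT. Bdh1, Ckb, Cldn1 and E2f2 were named for their large rises in BAT, a choice that favours such a difference.

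Falls that differed between the depots included Hcar1 (-2.67 in BAT, -0.45 in iWAT, adjusted p of the difference 0.0003), Pik3r1 (-2.08 in BAT, -0.17 in iWAT, 0.00155) and Aacs (-1.66 in BAT, 0.06 in iWAT, 6.4e-05). Hcar1, Pik3r1 and Aacs were likewise named for their large falls in BAT. Acly (-1.16 in BAT, 0.88 in iWAT, 0.022) and Fasn (-0.72 in BAT, 0.63 in iWAT, 0.0253) had opposite signs, though neither change was called in iWAT. Ucp1 (0.50 in BAT, 3.05 in iWAT, adjusted p of the difference 0.0775), Dio2 (1.71 in BAT, 3.77 in iWAT, 0.101), Elovl3 (1.38 in BAT, 3.56 in iWAT, 0.118) and Ppargc1a (2.39 in BAT, 2.54 in iWAT, 0.894) were not called for a difference.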

How the data were processed

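Polyadenylated RNA of 30 mouse adipose libraries was sequenced. The submitters' processing notes name HISAT2, HTSeq and the GRCm39 assembly, without versions or settings, and whether the strand was kept is not given in the sources used here. The deposited counts were whole reads per gene with no scaling by the authors (21652 genes). The deposited FPKM were the authors' counts divided by gene length and library total. From the counts, genes were kept by filterByExpr (minimum count 10), scaled by TMM factors and tested with edgeR 4.0.16 in R 4.3.3, the 15 BAT libraries of 3 groups sharing 1 fit. The interaction with iWAT used all 30 libraries.

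The comparison, the gene lists (48) and the named genes were chosen with earlier results of these data known. Text names followed a rule: among called, non-overlapping genes averaging 5 CPM or more in either group, the top 12 by log2 fold change in each direction (predicted genes skipped), plus 32 genes of thermogenesis and fuel use and, per list, up to 4 called members that kept their call without any 1 library. Members outside this rule were named as examples after their values were seen. Lists were described by counts and medians, with no test. Promoters and motifs were read from RefSeq windows with no test.

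The following were tried instead: limma 3.58.1 on log2 FPKM (pseudocounts 1 and 0.1), DESeq2 1.42.0, scaling by RLE or by upper quartiles, unfiltered genes, a 1 CPM minimum in 5 libraries, a fit of 2 groups or of all 30 libraries, mitochondrially encoded genes left out, replicate number as a block, and each library left out. A muscle covariate and leaving out 2 muscle-rich libraries were added after seeing the data. Libraries of a group differed by more than counting noise (chi-square per degree of freedom 14.6 to 88.1 over 20 pairs). The scripts were first tested on simulated data, in which 200 of 13090 genes were changed. There 30% of changes of 0.5 and 70% of changes of 1 on the log2 scale were called. A gene that was not called is thus not shown to be unchanged. Some items are not reported here.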

Additional observations from a re-analysis of the deposited data

Results flagged for a closer look

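Single libraries stood apart from the other 4 of their group in 27 of 446 values examined (6.1%), and chance alone gives about 1 in 20. At 6 h replicate 1 was the highest for Cidea (2177.9 CPM), Pnpla2 (2360.6 CPM), Psmd12 (131.6 CPM), Psma6 (297.1 CPM) and the macrophage receptor Cd14 (4.27 CPM), and the lowest for Dusp1 (63.6 CPM) and Hspa4l (160.8 CPM). The same library had the highest mean log2 CPM over the tricarboxylic acid cycle genes (10.09) and the lowest over the adrenergic genes (5.83). Elsewhere at 6 h, Elovl7 (2.36 CPM) and Igfbp3 (69.1 CPM) were highest in replicate 3, Lama4, a laminin chain, was highest in replicate 2 (61.7 CPM), Steap4 was lowest in replicate 4 (39.1 CPM), and Parp1, an enzyme that consumes NAD, was lowest in replicate 5 (42.7 CPM).

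At 22 °C replicate 4 was the lowest for Prkar1a (264.1 CPM), Alpl (20.7 CPM) and Hsd17b7 (9.38 CPM). It was the highest for Hspa1b (62 CPM), for the prostaglandin dehydrogenase Hpgd (7.6 CPM) and for the mean log2 CPM of collagen and matrix genes (5.24). Replicate 1 was the highest for Irf4 (67.1 CPM), Maff (5.92 CPM), Atf5 (127.5 CPM), the prostaglandin synthase Ptges2 (89.6 CPM) and Lama4 (93.7 CPM). Replicate 5 was the highest for Bdh1 (1.49 CPM) and Arhgef37 (4.23 CPM).

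Of 55 core genes, 17 differed between 24 h and 6 h of cold by edgeR (log2, 24 h over 6 h). Over all tested genes the share was 13.0%. The 55 include the 12 largest rises and 12 largest falls at 6 h. Those were chosen by 6 h libraries that this contrast uses again, so the 2 shares cannot be compared. Higher at 24 h were Bmp8b (2.00), Ckb (1.64), Bdh1 (1.34), Nr1d1 (0.79), Elovl3 (0.78), Aacs (0.66), Angpt1 (0.59) and Cidea (0.49). Lower at 24 h were Nr4a3 (-2.37), Cldn1 (-1.69), Nr4a1 (-1.12), Dio2 (-1.11), Bmal1 (-1.11), Cend1 (-1.01), E2f2 (-0.87), Ntrk3 (-0.85) and Hk2 (-0.58).

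In 17 of the 55 the 6 h log2 fold change differed between BAT and iWAT by the interaction test (BAT minus iWAT). Over all genes tested the share was 9.40%. The 55 include the 12 largest rises and 12 largest falls. Those were chosen by BAT values that enter this difference, so a higher share was favoured in advance. Positive differences were those of Bdh1 (7.14), Cldn1 (2.97), Ckb (2.12) and E2f2 (1.99). Negative differences were those of Hcar1 (-2.21), Acly (-2.03), Svep1 (-1.95), Pik3r1 (-1.90), Tmem179 (-1.71), Aacs (-1.71), Sntb1 (-1.49), Angpt1 (-1.48), Ntrk3 (-1.46), Trarg1 (-1.38), Fasn (-1.34), Igfals (-1.28) and Pnpla2 (-0.78).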

How the results depend on the processing

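The count of 2967 genes called at 6 h ran from 2274 (without 22 °C replicate 4) to 3196 (without 6 h replicate 1), and from 2760 to 3336 (DESeq2) under the other planned settings. It was 1933 with the muscle covariate and 1783 without the 22 °C replicates 4 and 5. The 1708 calls between 24 h and 6 h ran from 1205 to 2230 without 1 library and from 1245 to 2168 otherwise. The 1325 differences between BAT and iWAT ran from 922 to 1921 without 1 library, and 2606 were called on log2 FPKM with a pseudocount of 1. Upper-quartile scaling split the 6 h calls into 1424 higher and 1549 lower, and the interaction into 631 and 644. The cause of these shifts was not tested. Uncalled genes with a reversed sign were Cpt1b (-0.02 and -0.03 on log2 FPKM with pseudocounts of 1 and 0.1, -0.06 without the muscle-rich pair, -0.12 to 0.19 without 1 library), Pdk4 (-0.01 without the pair, -0.01 to 0.16 without 1 library), Per1 (-0.01 to 0.09 without 1 library) and Hspa1b (0.34 and 0.58 on those FPKM scales, 0.40 with the replicate block, 0.77 without the pair, -0.55 to 1.12 without 1 library). Same-numbered libraries of the groups deviated with correlations of -0.62 to 0.26 over 9166 genes, and 1 of 5 correlated best with its own number, so the numbers were not taken to pair samples. The replicate block gave 3282 calls (1826 higher, 1456 lower) and a call for Pnpla2 (adjusted p = 0.0345). At this depth genes near 1 CPM, such as Gdf15 with an SE of 0.61 on the log2 scale, had wide errors.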
